A study of Mus musculus with 4 samples.

Results

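CD8-expressing T cells were picked out of single-cell libraries of small-intestinal crypts as barcodes with at least 2 unique molecular identifiers (UMIs, each standing for 1 captured RNA molecule) over Cd3e, Cd3d, Cd3g, Trac, Trbc1 and Trbc2, at least 1 UMI of Cd8a or Cd8b1 and 0 UMIs of the epithelial gene Epcam. Members were thus chosen by their own UMIs of these 9 genes, whose levels are given only as a description. The rule gave 649 cells among the 13800 barcodes that held at least 500 UMIs and 300 genes with at most 20% mitochondrial UMIs. In the allogeneic group (2 libraries), C57BL/6 mice with graft-versus-host disease had received BALB/c marrow. In the syngeneic control group (2 libraries), C57BL/6 mice had received C57BL/6 marrow. All recipients were female, 8 to 12 weeks old and lethally irradiated, and crypts were taken on day 7 after transplantation. Each library pooled the crypts of 3 to 4 mice, so single animals cannot be separated, and donor strain and transplant type cannot be told apart. The labels do not say whether the graft held added T cells, nor what KO in the sample titles means. Whether a given T cell came from the donor or survived in the host was not tested.

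CD8 is the coreceptor with which T cells bind MHC class I. On conventional cytotoxic T cells it is a heterodimer of CD8α (Cd8a) and CD8β (Cd8b1), while many resident intraepithelial lymphocytes, γδ T cells among them, carry a CD8αα homodimer. Cytotoxic T cells kill with granzymes delivered through perforin, and donor CD8 T cells that enter the gut are a known arm of graft-versus-host disease. Entry into the small intestine uses the integrin α4β7 and the chemokine receptor CCR9, and retention beside the epithelium uses CD103 (Itgae), which pairs with integrin β7 and binds E-cadherin.

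The promoters of 4 genes on which the results turn are shown because Gzma and Fcer1g were lower, and Klrc1 higher, in members with a Cd8b1 UMI, while Gzmb is the abundant granzyme that did not pass that test. The sequences run 5′ to 3′ from 250 bases before to 50 bases after the annotated start and come from RefSeq on GRCm38.p6. Capitals mark matches on either strand to a core of the RUNX motif (TGTGGT) or to the AP-1 motif TGANTCA.
Gzma promoter (chr13:113100932-113101231, minus strand): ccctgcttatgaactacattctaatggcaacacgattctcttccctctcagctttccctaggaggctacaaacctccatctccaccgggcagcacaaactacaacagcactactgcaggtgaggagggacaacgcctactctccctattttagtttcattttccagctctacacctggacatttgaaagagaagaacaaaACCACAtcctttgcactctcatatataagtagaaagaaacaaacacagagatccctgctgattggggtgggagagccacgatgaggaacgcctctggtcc
Gzmb promoter (chr14:56262285-56262584, minus strand): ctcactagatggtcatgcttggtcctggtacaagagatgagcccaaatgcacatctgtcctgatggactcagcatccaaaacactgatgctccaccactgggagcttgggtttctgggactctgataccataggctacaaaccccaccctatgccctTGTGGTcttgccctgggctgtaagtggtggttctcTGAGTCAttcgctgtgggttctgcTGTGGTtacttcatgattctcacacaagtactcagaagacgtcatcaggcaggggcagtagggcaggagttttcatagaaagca
Fcer1g promoter (chr1:171234300-171234599, minus strand): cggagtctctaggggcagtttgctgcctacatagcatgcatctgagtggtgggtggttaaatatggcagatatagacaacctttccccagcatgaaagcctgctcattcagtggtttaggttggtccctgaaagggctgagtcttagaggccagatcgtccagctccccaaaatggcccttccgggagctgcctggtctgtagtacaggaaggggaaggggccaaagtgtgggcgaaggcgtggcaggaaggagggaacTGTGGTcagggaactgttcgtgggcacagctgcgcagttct
Klrc1 promoter (chr6:129678924-129679223, minus strand): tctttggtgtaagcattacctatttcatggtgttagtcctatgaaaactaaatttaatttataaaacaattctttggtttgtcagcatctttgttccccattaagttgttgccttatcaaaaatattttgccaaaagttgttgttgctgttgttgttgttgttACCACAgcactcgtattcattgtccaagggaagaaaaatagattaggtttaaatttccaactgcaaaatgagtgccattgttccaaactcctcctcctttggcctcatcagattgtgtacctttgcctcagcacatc
Of 12 genes looked up, 8 had a promoter entry. The RUNX letters were in 5 of these 8, against 16.8% of all 32851 mouse promoters, and the AP-1 letters in 2, against 7.81%. The promoters of Ifitm1, Pdcd1 and S100a4, which are not shown, held neither. The T-box letters GGTGTGA were in 0 of the 8, against 3.98% of all promoters. The genes were chosen after their values were seen, and a match describes letters, not binding.

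The libraries differed in depth and in how much they could show. Total UMIs per library were 16755124 and 26677842 in the allogeneic and 18262459 and 14961466 in the syngeneic libraries. Members were low in RNA: their median was 1080.5 and 1002.5 UMIs in the allogeneic and 612 and 731 UMIs in the syngeneic libraries, against medians of 3948.5 to 5620 UMIs in epithelial comparison cells (at least 2 Epcam UMIs and 0 T cell UMIs). Genes of the epithelial, Paneth, goblet and enterocyte lists made up a median of 0.0256% and 0.0716% of a member's UMIs in the allogeneic and 0.18% and 0.15% in the syngeneic libraries, against 4% to 11.7% in epithelial comparison cells. Scrublet, a doublet caller, marked 35 and 87 kept barcodes of the allogeneic and 5 and 8 of the syngeneic libraries, with 0 members among them, and no member barcode was shared between libraries. The labels describe the samples as crypt epithelium, which these cells are not.

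The 5 marker genes of the population were present in both groups. Cd3e (ENSMUSG00000032093) stood at 1359 and 1370 UMIs per 1000000 UMIs of the summed members (CPM) in the allogeneic and 2354 and 1642 CPM in the syngeneic libraries. Cd8a (ENSMUSG00000053977, GRCm38/mm10 chromosome 6, 71373427 to 71379173) stood at 1252 and 1035 CPM in the allogeneic and 2605 and 2120 CPM in the syngeneic libraries. Cd8b1 (ENSMUSG00000053044, chromosome 6, 71322788 to 71337494) stood at 666 and 890 CPM in the allogeneic and 220 and 337 CPM in the syngeneic libraries. Cd3e and the CD8 chains chose the cells and are given as a description. At the edge of the rule, 105, 88, 22 and 24 members (allogeneic 1 and 2, then syngeneic 1 and 2) held exactly 1 CD8 UMI, and 15, 12, 1 and 2 held exactly 2 UMIs of the T cell genes. Just outside lay 2, 6, 1 and 1 barcodes with 1 T cell UMI, and 10, 11, 2 and 3 barcodes with 1 Epcam UMI. Cd4, which marks helper T cells, was found in 1 member of each allogeneic library and in 0 syngeneic members.

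CD8-expressing T cells were 280 of 2443 kept barcodes in allogeneic 1 (11.5%, exact 95% binomial interval 10.2 to 12.8) and 246 of 5571 in allogeneic 2 (4.42%, 3.89 to 4.99). They were 47 of 3036 in syngeneic 1 (1.55%, 1.14 to 2.05) and 76 of 2750 in syngeneic 2 (2.76%, 2.18 to 3.45). Both allogeneic shares lay above both syngeneic shares, with means of 7.94% ± 4.98 against 2.16% ± 0.86 (SD, n = 2 pools each) and a log2 ratio of 1.88. The exact two-sided permutation test over libraries gave p = 0.333, the smallest that 2 against 2 libraries allow. Without allogeneic 1 the log2 ratio was 1.03, and with a minimum of 1000 UMIs and 500 genes it was 3.22. Intervals cover counting error only, and a share of barcodes depends on how many epithelial cells were recovered, so more T cells and fewer epithelial cells cannot be told apart.

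The balance of CD8-expressing and CD8-negative cells among all T cells was near 2 to 1 in each library. CD8-expressing cells were 280 of 423 T cells (66.2%) and 246 of 364 (67.6%) in the allogeneic libraries, and 47 of 74 (63.5%) and 76 of 114 (66.7%) in the syngeneic libraries. The groups overlapped, the log2 ratio of means was 0.04, and the exact permutation p was 0.667, which with 2 libraries a side does not show that the shares were alike.

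**Figure D1:**
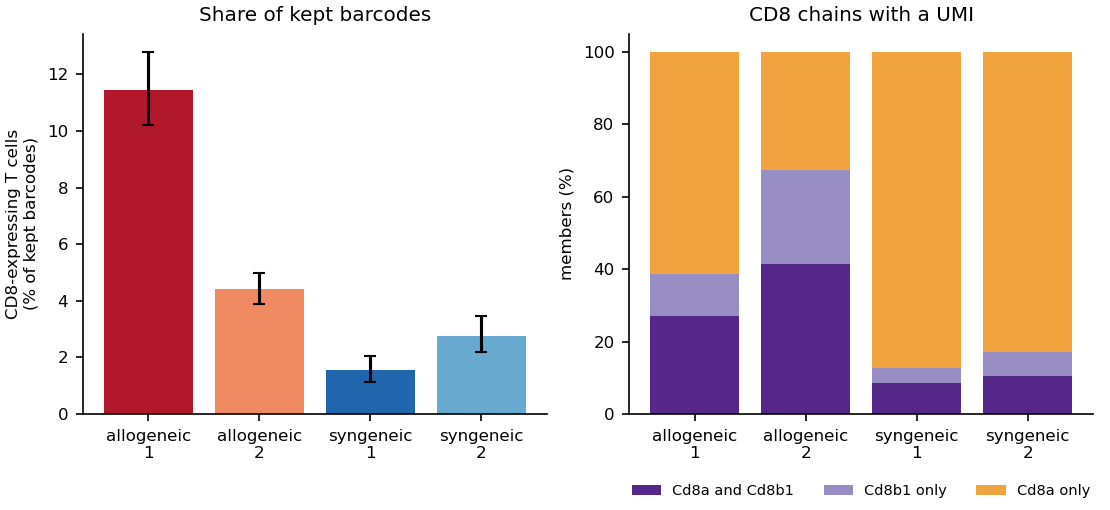
Left, share of kept barcodes that were CD8-expressing T cells (percent) in each library, with exact 95% binomial intervals as error bars. Right, percent of these members with UMIs of both CD8 chains, of Cd8b1 alone or of Cd8a alone: a Cd8b1 UMI was found in 38.6% and 67.5% of allogeneic members and in 12.8% and 17.1% of syngeneic members.

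Cd8b1 UMIs made up more of the CD8 UMIs in each allogeneic than in each syngeneic library. Cd8b1 was detected in 108 of 280 and 166 of 246 allogeneic members (38.6% and 67.5%), and in 6 of 47 and 13 of 76 syngeneic members (12.8% and 17.1%). Of all CD8 UMIs, Cd8b1 was 34.7% of 830 and 46.2% of 597 CD8 UMIs in the allogeneic and 7.78% of 90 and 13.7% of 175 CD8 UMIs in the syngeneic libraries. Since the rule used these chains, the shares are a description without a test.

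Granule genes were abundant in the members of each library: the 18 genes of the list summed to 33611 and 27691 CPM in the allogeneic and 45480 and 43429 CPM in the syngeneic libraries. Gzma, granzyme A (chromosome 13, 113093825 to 113100981), stood at 22360 and 13818 CPM in the allogeneic and 31638 and 29898 CPM in the syngeneic libraries. Gzmb, granzyme B (chromosome 14, 56258838 to 56262260), stood at 5125 and 6131 CPM in the allogeneic and 4959 and 6990 CPM in the syngeneic libraries. The allogeneic values of Gzma lay below the syngeneic ones, while those of Gzmb lay within their range. Among members thinned to 1000 UMIs, Gzma was detected in 82.6% of 155 and 80.6% of 124 allogeneic cells and Gzmb in 73.5% and 83.9%. In allogeneic epithelial comparison cells at the same depth, Gzma was detected in 0.349% of 1718 and 0.0658% of 4558 and Gzmb in 0% (which allows up to 0.175%) and 0.0439%. Thinning left out 125 and 122 allogeneic members, 44 of the 47 members of syngeneic 1 and 52 of the 76 of syngeneic 2, so syngeneic shares are not read. Most thinned cells with one granzyme held the other: 103 of the 114 Gzmb-positive cells of allogeneic 1 and 90 of the 104 of allogeneic 2 also held Gzma.

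**Figure D2:**
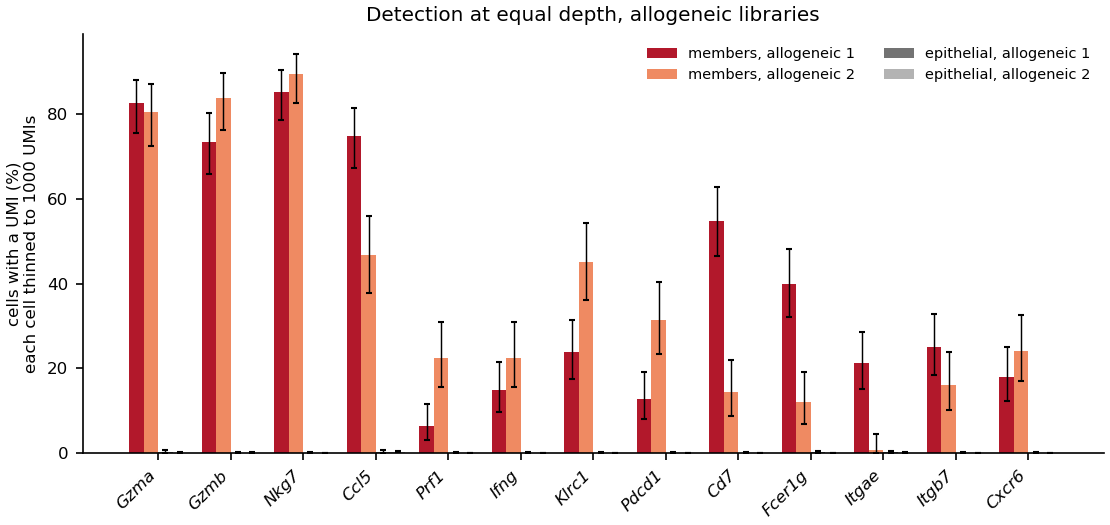
Percent of cells with at least 1 UMI of each gene after every cell was thinned to 1000 UMIs, for members and for epithelial comparison cells of both allogeneic libraries, with exact 95% binomial intervals. Gzma, Gzmb and Nkg7 were found in over 70% of members of both libraries and in under 1% of epithelial cells, and Itgae in 21.3% and 0.806% of members of allogeneic 1 and 2.

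Perforin and the inflammatory cytokine interferon gamma were less abundant than granzymes A and B. Prf1 stood at 109 and 303 CPM in the allogeneic and 0 and 14 CPM in the syngeneic libraries, where syngeneic 2 held 1 UMI. Ifng stood at 201 and 406 CPM in the allogeneic and 94.2 and 56.1 CPM in the syngeneic libraries. The summed syngeneic members held 31860 and 71242 UMIs, so 1 UMI stood for 31.4 and 14 CPM. The syngeneic values of Prf1 and Ifng thus rest on few UMIs. Both genes had groups that did not overlap, as did 47.5% of the 3135 genes tested, but neither passed the test between groups given further on (edgeR adjusted p = 0.137 for Prf1 and 0.167 for Ifng). At 1000 UMIs, Ifng was detected in 14.8% and 22.6% and Prf1 in 6.45% and 22.6% of allogeneic members. Nkg7, a granule membrane protein needed for efficient killing, stood at 1869 and 2972 CPM in the allogeneic and 3986 and 2793 CPM in the syngeneic libraries. Ccl5, a chemokine stored by effector T cells, stood at 13401 and 5737 CPM in the allogeneic and 27401 and 26936 CPM in the syngeneic libraries, with groups that did not overlap and an edgeR adjusted p of 0.142.

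Among homing and adhesion genes, some were lower and some higher in both allogeneic libraries. Itgae stood at 293 and 35.5 CPM in the allogeneic and 628 and 491 CPM in the syngeneic libraries. Ccr9 stood at 76.3 and 25.8 CPM in the allogeneic and 157 and 182 CPM in the syngeneic libraries. For both genes each allogeneic library lay below each syngeneic one. Itga4, the α chain of the gut-homing integrin, stood at 143 and 148 CPM in the allogeneic and 62.8 and 42.1 CPM in the syngeneic libraries. Cxcr6, the receptor for CXCL16, stood at 196 and 313 CPM in the allogeneic and 126 and 28.1 CPM in the syngeneic libraries. Both were higher in each allogeneic library, but Itga4 rested on 2 and 3 UMIs and Cxcr6 on 4 and 2 UMIs in the syngeneic libraries, and none of these 4 genes passed the test between groups. Itgb7, the β chain shared by α4β7 and CD103, overlapped at 310 and 187 CPM in the allogeneic and 220 and 505 CPM in the syngeneic libraries. Receptors of lymph node circulation were near or at 0. Ccr7 had 0 allogeneic UMIs, which allows levels of up to 6.93 and 9.67 CPM (3 counts per library), and 1 syngeneic UMI, and S1pr1, the egress receptor, had 4 allogeneic UMIs and 1 syngeneic UMI.

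Among inhibitory receptors, Lag3 and Ctla4 overlapped between the groups. Lag3 stood at 280 and 193 CPM in the allogeneic and 282 and 267 CPM in the syngeneic libraries, and Ctla4 at 254 and 326 against 314 and 140 CPM. Cd160, a receptor of intraepithelial and cytotoxic lymphocytes, stood at 305 and 322 CPM in the allogeneic and 722 and 786 CPM in the syngeneic libraries, with groups that did not overlap (edgeR adjusted p = 0.271). Ikzf2 stood at 448 and 122 CPM in the allogeneic and 722 and 547 CPM in the syngeneic libraries, again without overlap. Il7r, the interleukin 7 receptor, stood at 136 and 41.9 CPM in the allogeneic and 62.8 and 14 CPM in the syngeneic libraries, Tcf7 stood at 30 and 0 CPM in the allogeneic and 31.4 and 56.1 CPM in the syngeneic libraries, and Klrg1 at 4.62 and 6.45 against 0 and 0 CPM. With 1 UMI at 31.4 and 14 CPM in syngeneic 1 and 2, the syngeneic values of Il7r and Tcf7 rest on few UMIs. Cd7 stood at 1863 and 380 CPM in the allogeneic and 3986 and 3593 CPM in the syngeneic libraries, and Fcer1g at 853 and 268 against 1852 and 1474 CPM. Both had groups that did not overlap, and neither passed the test between groups (edgeR adjusted p = 0.296 for each).

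**Figure D3:**
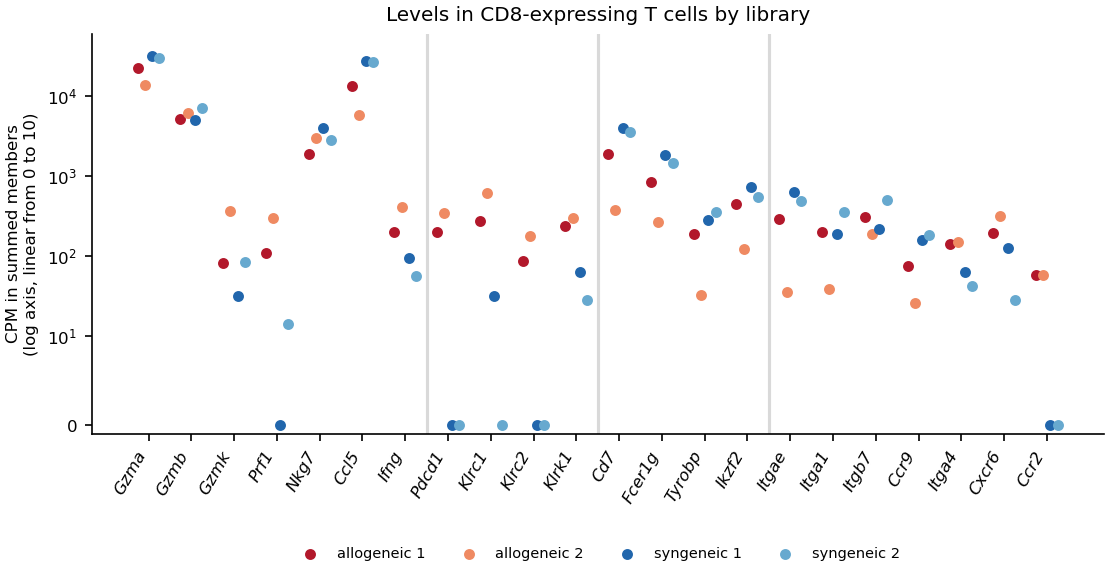
Level of each gene in the summed members of each library (CPM, log axis that is linear from 0 to 10); vertical lines separate effector genes, activating and inhibitory receptors, genes of resident lymphocytes, and homing genes. Pdcd1, Klrc2 and Ccr2 had 0 UMIs in both syngeneic libraries, while Cd7, Fcer1g and Itgae were higher in each syngeneic library than in either allogeneic one.

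Between the groups, edgeR's quasi-likelihood test on UMIs summed per library (2 allogeneic against 2 syngeneic) called 11 of 3135 genes at a Benjamini-Hochberg adjusted p under 0.05 (0.351%). Of these, 10 were higher (0.319%) and 1 was lower (0.0319%) in allogeneic members. Among all the fixed lists of T cell states, only Pdcd1 (inhibitory receptors, 1 of 6 tested) and Klrc1 (NK receptors, 1 of 7 tested) passed. The median log2 fold change was 0.08 over all genes tested, 0.24 over 14 granule genes, 0.46 over 14 homing genes and 0.28 over 6 inhibitory receptors. The comparison was added after the number of syngeneic members was seen.

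Ifitm1, an interferon-induced transmembrane protein (chromosome 7, 140967221 to 140969825), stood at 952 and 2637 CPM in the allogeneic and 0 and 0 CPM in the syngeneic libraries. Measured against a floor of 3 UMIs over both syngeneic libraries (29.1 CPM), it was at least 56.9-fold higher in allogeneic members (edgeR adjusted p = 0.00249). Epithelial comparison cells held it at 4.21 CPM or less. S100a6, a calcium-binding protein, stood at 1340 and 2949 CPM in the allogeneic and 0 and 56.1 CPM in the syngeneic libraries (log2 fold change 5.94, SE 0.67, edgeR adjusted p = 0.00249), but epithelial cells of the allogeneic libraries also held 638 and 2077 CPM. S100a4 was at least 13.9-fold higher, at 372 and 448 CPM in the allogeneic against 0 and 0 CPM in the syngeneic libraries. Lgals1, galectin-1, stood at 1209 and 1592 CPM in the allogeneic and 0 and 98.3 CPM in the syngeneic libraries. Each of these genes was higher in both allogeneic libraries than in either syngeneic one, which the rule for naming them required. Of all 3135 genes tested, 47.5% had groups that did not overlap.

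Pdcd1, which encodes the inhibitory receptor PD-1 (chromosome 1, 94038305 to 94052553), stood at 199 and 342 CPM in the allogeneic and 0 and 0 CPM in the syngeneic libraries. It was at least 8.88-fold higher in allogeneic members (edgeR adjusted p = 0.023). Klrc1, which encodes NKG2A, an inhibitory receptor that pairs with CD94 (chromosome 6, 129666015 to 129678973), stood at 277 and 619 CPM in the allogeneic and 31.4 and 0 CPM in the syngeneic libraries. The syngeneic value rested on 1 UMI, and the pooled ratio was 43.3 with a 95% counting interval of 7.71 to 1715 (edgeR adjusted p = 0.023). Ifitm2 stood at 455 and 1157 CPM in the allogeneic and 0 and 28.1 CPM in the syngeneic libraries, and epithelial cells held it at 309 to 460 CPM. The predicted gene Gm10260 was at least 6.85-fold higher. Asb2, a subunit of an E3 ubiquitin ligase, was the gene that was lower, at 25.4 and 19.3 CPM in the allogeneic and 282 and 182 CPM in the syngeneic libraries (log2 fold change −3.11, SE 0.53, adjusted p = 0.023). The other 2 called genes, Ifitm3 and Plac8, fell outside the rule for named genes and are mentioned after their values were seen: both were higher in allogeneic members but higher still in epithelial cells.

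Without cycling cells the same test called 0 of 946 genes, with 77 at an unadjusted p under 0.05, and all 9 of the called genes that could still be tested kept their direction. Without allogeneic 1 it called 173 genes and without allogeneic 2 it called 45. Ifitm genes, Klrc1, Klrc2 and the γ chain constant regions have close paralogs, and the way the authors' counting split such reads is not given in the sources used here.

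The allogeneic libraries themselves differed from each other, which has no test with 1 library on each side. Of 4570 genes with at least 20 UMIs over both, 640 (14.0%) were more than 2-fold higher in allogeneic 1 and 188 (4.11%) in allogeneic 2. Of 218 list genes among them, 27 were more than 2-fold higher in allogeneic 1 and 18 in allogeneic 2. As a share of list genes, the 27 lay below the 14.0% over all genes, and the 18 lay above the 4.11%. The 27 genes were spread over many lists. Among them were 4 of 18 homing, 4 of 12 cytokine receptor, 3 of 7 NK receptor, 3 of 16 transcription factor and 3 of 4 γδ genes. Some of the 27 were genes of resident and γδ lymphocytes. Tcrg-C1, a γ chain constant region, stood at 358 against 38.7 CPM (9.26-fold), Itgae at 293 against 35.5 CPM (8.28-fold), and Trdc, the δ chain constant region, at 178 against 29 CPM (6.13-fold). Tyrobp (5.88-fold), Itga1 (5.2-fold), Cd7 (4.9-fold) and Bcl2 (4.34-fold) followed. The 18 genes higher in allogeneic 2 were spread over 11 lists, among them 3 granule, 3 S phase, 2 NK receptor, 2 G2 and mitosis and 2 transcription factor genes. Gzmk stood at 83.2 CPM in allogeneic 1 against 361 CPM in allogeneic 2, Prf1 at 109 against 303 CPM, Klrc1 at 277 against 619 CPM, Ifng at 201 against 406 CPM, and Rrm2, a subunit of ribonucleotide reductase, at 116 against 313 CPM. At 1000 UMIs, Itgae was detected in 33 of 155 members of allogeneic 1 and 1 of 124 members of allogeneic 2.

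Members with a Cd8b1 UMI were then set against members with Cd8a UMIs alone, within each allogeneic library, a comparison chosen after the chains had been counted. With the library as a block, edgeR's quasi-likelihood test called 93 of 3011 genes (3.09%), 28 higher (0.93%) and 65 lower (2.16%) in Cd8b1-positive members. The sums held 108 and 166 Cd8b1-positive and 172 and 80 Cd8a-only cells. Cd8b1-positive cells were deeper, with medians of 1523.5 and 1061 UMIs against 918 and 826 UMIs, and a Cd8a-only cell may hold Cd8b1 RNA that was not sampled.

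Several genes known from intraepithelial and γδ lymphocytes were lower in Cd8b1-positive members. Cd7, a surface receptor of intraepithelial lymphocytes, stood at 279 and 87.4 CPM in Cd8b1-positive members of allogeneic 1 and 2, against 3981 and 1065 CPM in Cd8a-only members (log2 fold change −3.83, SE 0.3, edgeR adjusted p = 2.53e-34). Fcer1g, a signalling adaptor of Fc and NK receptors, stood at 133 and 179 CPM in Cd8b1-positive members, against 1815 and 473 CPM in Cd8a-only members (log2 fold change −2.74, SE 0.36, adjusted p = 2.74e-11). Tyrobp, the adaptor DAP12, had 0 UMIs in Cd8b1-positive members of both libraries, against 443 and 108 CPM in Cd8a-only members, and was at least 51.3-fold lower against a floor of 3 UMIs over the class. The classes did not overlap for any of these 3 called genes, but the share of all genes tested without overlap was not counted.

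The γδ constant regions Tcrg-C1 and Tcrg-C4 both fell, 2 of 3 list members tested, with log2 fold changes of −4.02 and −3.18 (SE 0.52 and 0.49). Of 14 homing genes tested, Itgae and Ccr9 fell and none rose. Itgae stood at 96.9 and 13.8 CPM in Cd8b1-positive members, against 556 and 86 CPM in Cd8a-only members (log2 fold change −2.65, SE 0.47, edgeR adjusted p = 2.97e-06). Ikzf2, which encodes the transcription factor Helios, and Bcl2, a survival factor, fell by 2.46 and 1.98 on the log2 scale. Gzma fell by 1.35 and Ccl5 fell by 2.45 on the log2 scale (SE 0.1 and 0.13). Gzmb did not pass (−0.37, SE 0.16, edgeR adjusted p = 0.24). Areg, a growth factor for epithelium, and Cxcl10, a chemokine, fell by 3.45 and 3.95, Cxcl10 on 2 UMIs in Cd8b1-positive members. Epithelial comparison cells of allogeneic 1 and 2 held Cxcl10 at 76.4 and 161 CPM, against 70.2 and 75.3 CPM in Cd8a-only members. They held Areg at 26.8 and 86.8 CPM, against 167 and 53.8 CPM in Cd8a-only members. Areg had per-library log2 ratios of −3.71 in allogeneic 1 and −1.15 in allogeneic 2, the last on 4 against 5 UMIs. The part of epithelial RNA in these differences was not tested. The stress and early response genes Junb and Dusp1 fell by 1 and 1.28.

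Of the receptor lists, 2 of 6 NK receptor genes rose and 2 fell (Fcer1g and Tyrobp, above; median log2 fold change −0.29), 2 of 7 inhibitory receptors rose and 1 of 10 cytokine receptors rose in Cd8b1-positive members. Klrc2, the activating receptor NKG2C, stood at 141 and 221 CPM in Cd8b1-positive members, against 16.2 and 86 CPM in Cd8a-only members (log2 fold change 1.97, SE 0.5, edgeR adjusted p = 0.00573). Il18r1, a chain of the interleukin 18 receptor, stood at 133 and 110 CPM against 27 and 32.3 CPM (log2 fold change 1.98, SE 0.54, adjusted p = 0.0125). Pdcd1 and Havcr2, the inhibitory receptors PD-1 and TIM-3, rose by 1.44 and 1.72 (SE 0.41 and 0.52). Klrc1 and Cd28, the costimulatory receptor, also passed the test (log2 fold changes 1.41 and 1.59), but the change lay in allogeneic 1. Klrc1 had per-library log2 ratios of 3.32 in allogeneic 1 and 0.08 in allogeneic 2, and Cd28 of 3.49 and 0.04. Ube2c, a mitotic ubiquitin conjugase, was the gene that rose among 17 of the G2 and mitosis list (1.2, SE 0.37).

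The 10 other genes named as rising, in order of p, began with Ifitm1, S100a6 and Lgals1, which were also higher in allogeneic than in syngeneic members. Ifitm1 stood at 1628 and 2715 CPM in Cd8b1-positive members, against 48.6 and 2452 CPM in Cd8a-only members. Cd8a-only cells of allogeneic 1 were low and those of allogeneic 2 were not, so the change lay mainly in allogeneic 1. The same held for Lgals1 (per-library log2 ratios of 3 in allogeneic 1 and 0.31 in allogeneic 2), Ifitm2 (2.97 and 0.28), S100a4 (3.57 and 0.17) and Tpm3-rs7 (3.36 and 0.17). The remaining genes were Actb (0.91 and 0.24), Ms4a4b (2.19 and 0.72), Ctla2a (2.42 and 0.81) and Rasgrp2 (2.11 and 1.96), and S100a6 had ratios of 2.56 and 0.63. The genes named as falling were Gm156, Malat1, Cela1, Ier5l, Serpina3g, Rgs1, Tulp4, Napsa, H2-Q6 and Apobec3. Gm156 stood at 20.2 and 0 CPM in Cd8b1-positive members, against 675 and 172 CPM in Cd8a-only members.

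**Figure D4:**
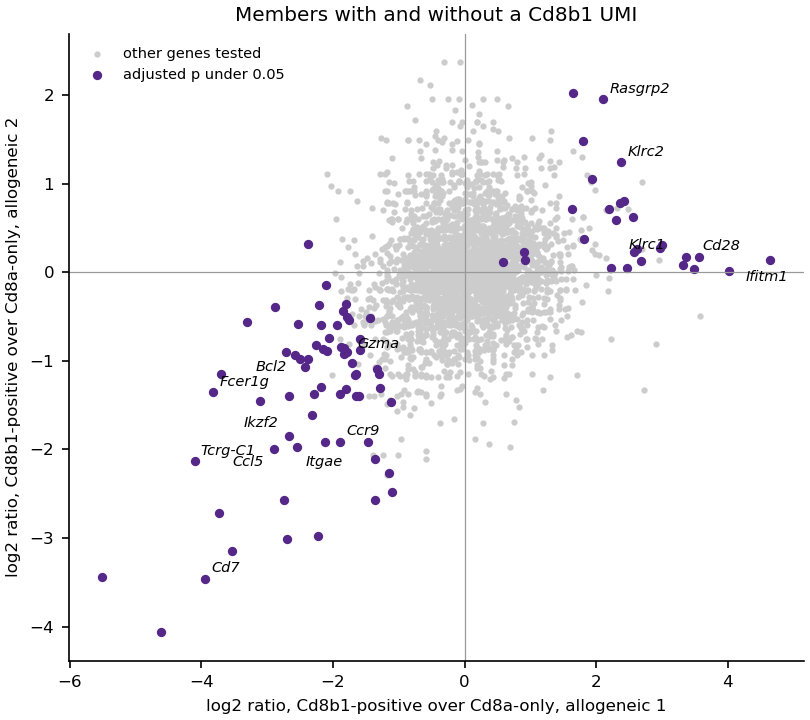
Each point is a gene, placed by its log2 ratio of Cd8b1-positive over Cd8a-only members in allogeneic 1 (horizontal) and allogeneic 2 (vertical); purple points passed an edgeR adjusted p of 0.05. Cd7, Ccl5, Tcrg-C1 and Itgae lie far below 0 on both axes, while Ifitm1, Klrc1 and Cd28 lie to the right but near 0 for allogeneic 2.

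Of the 93 called genes, 92 had the same sign in both libraries, which also gave the calls, so this agreement is not independent of them. Without cycling cells 82 genes were called, 39 of them shared with the 93, while the fit without the library block called 0 (172 at an unadjusted p under 0.05) and DESeq2 called 11. With 2 libraries the fit took most of its estimate of spread from all genes together, so very small p-values rest on few sums.

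Detection in single cells at equal depth, given without a test, differed between the libraries. Fcer1g was detected in 6 of 65 Cd8b1-positive cells (9.23%) and in 62.2% of the Cd8b1-negative cells of allogeneic 1, and in 10.8% and 13.6% in allogeneic 2. Itgae was detected in 9.23% of the Cd8b1-positive and 30% of the Cd8b1-negative cells of allogeneic 1, while in allogeneic 2 the 1 cell with Itgae was Cd8b1-positive. Klrc1 was detected in 40% of the Cd8b1-positive and 12.2% of the Cd8b1-negative cells of allogeneic 1, and in 53.8% and 35.6% in allogeneic 2. In allogeneic 1, 5 of 37 cells with Klrc1 also held Fcer1g (13.5%). In allogeneic 2, where 15 of 124 members held Fcer1g, 8 of 56 cells with Klrc1 did (14.3%).

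Cycling was scored from 20 S phase genes and 20 genes of G2 and mitosis, and a cell was called cycling with at least 3 of their UMIs that made up at least 0.3% of its UMIs. By this measure 73 of 280 and 137 of 246 allogeneic members were cycling (26.1% and 55.7%), and 5 of 47 and 24 of 76 syngeneic members (10.6% and 31.6%). The 2 groups overlapped. The call depends on depth: cycling members had medians of 2094 and 1481 UMIs in the allogeneic libraries, against 907 and 676 UMIs in the other members. After thinning to 1000 UMIs, 72 of 155 (46.5%, exact 95% interval 38.4 to 54.6) and 105 of 124 (84.7%, 77.1 to 90.5) allogeneic members were cycling, as were 1 of 3 and 15 of 24 syngeneic members. Members under 1000 UMIs were left out, and before thinning 67 of the 155 and 104 of the 124 were already called cycling. The thinned shares thus describe the deeper members only and do not correct the shares of 26.1% and 55.7%. The score is a range, and 75, 79, 14 and 20 members (allogeneic 1 and 2, syngeneic 1 and 2) lay near the threshold. Members with a Cd8b1 UMI were cycling in 49.1% and 60.8% of cells in allogeneic 1 and 2, against 11.6% and 45% of Cd8a-only members, with the depth difference given above. Epithelial cells also express these genes, at 2405 and 1835 CPM summed over the G2 and mitosis list, against 2288 and 3442 CPM in members of the allogeneic libraries. The part of free RNA in the call was not tested.

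Cycling members differed from the rest in effector, resident and metabolic genes, but the split overlapped with that by CD8 chain. A Cd8b1 UMI was held by 53 of 73 cycling members of allogeneic 1 and 101 of 137 of allogeneic 2. Among the other members it was held by 55 of 207 and 65 of 109. Ccl5, Gzma, Cd7, Fcer1g and Itgae fell in both comparisons, and the part of the chains in the cycling differences was not tested. With the library as a block and the cycle lists left out, edgeR called 327 of 3132 genes (10.4%), 166 higher (5.3%) and 161 lower (5.14%) in cycling members. All 327 had the same sign in both libraries, but the same 2 libraries gave the calls, so this agreement is not independent of them. Without TMM scaling the split was 211 higher and 118 lower.

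The glycolysis list moved one way: 6 of 11 genes tested rose and 0 fell, with a median log2 fold change of 0.72 against −0.06 over all genes. Ldha, lactate dehydrogenase A, stood at 1288 and 1526 CPM in cycling members, against 706 and 738 CPM in the other members (log2 fold change 0.82, SE 0.15, edgeR adjusted p = 0.0123). Pgam1, Tpi1, Eno1, Pkm and Gapdh rose by 1.47, 1.31, 0.79, 0.72 and 0.66. Outside the lists, the chromatin and spindle genes Hmgb2, Tubb5, Hist1h2ap, Ptma, Tuba1b, H2afz, Ran, Stmn1, Anp32b and Pclaf rose. The cells were split by cycle genes, so a rise of genes that move with the cycle follows from the split. Hmgb2 stood at 2923 and 3109 CPM in cycling members, against 567 and 646 CPM in the other members (log2 fold change 2.19, SE 0.13, adjusted p = 3.9e-05).

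Of 14 granule genes tested, 4 fell and 0 rose in cycling members. Gzma stood at 14068 and 11390 CPM in cycling members, against 30206 and 20077 CPM in the other members (log2 fold change −1.09, SE 0.12, edgeR adjusted p = 0.00134). Ctsw, Srgn and Nkg7 fell by 0.94, 0.66 and 0.54. Gzmb had a log2 fold change of −0.34 (SE 0.14, edgeR adjusted p = 0.163) and Prf1 of 1.16 (SE 0.49, adjusted p = 0.161), and neither passed. Ccl5 stood at 4458 and 2402 CPM in cycling members, against 21863 and 14334 CPM in the other members, a log2 fold change of −2.56 (SE 0.11, edgeR adjusted p = 5.98e-06). The chemokine Ccl3 rose by 1.08 on the log2 scale (SE 0.3, adjusted p = 0.0494), and at a cycling threshold of 0.6% its log2 fold change was −0.43.

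Of 13 homing genes tested, 5 fell and 0 rose in cycling members. Itgae fell by 2.62, Gpr18 by 2 and Itga1, the collagen-binding CD49a, by 1.47 on the log2 scale, and Jaml and Selplg, adhesion molecules of leukocytes, by 1.09 and 0.69. Itga4 (0.51, SE 0.31), Itgb7 (−0.41, SE 0.26) and Cxcr6 (0.12, SE 0.25) did not pass. Of the NK receptor list, Tyrobp, Fcer1g and Klrd1 fell (3 of 7 tested), and Trdc, Tcrg-C1 and Tcrg-C4 fell among 4 γδ genes. The transcription factors Ikzf2, Hopx and Klf6 fell (3 of 15 tested), as did Bcl2 and Mcl1 (2 of 11 survival genes) and Fos, Jun and Junb (3 of 11 early response genes). Areg, Cd7, Cd96, Ptprc, Igtp and Ifngr1 also fell. Igtp rested on 6 and 6 UMIs in cycling and 14 and 11 UMIs in the other members. Epithelial comparison cells of allogeneic 1 and 2 held Igtp at 148 and 274 CPM, against 63 and 127 CPM in the other members. They held Jun at 269 and 190 CPM, against 144 and 208 CPM. The part of epithelial RNA in these values was not tested. Among genes outside the lists the lowest p belonged to Malat1, Vps37b, Btg2, Gimap3, Neurl3, Rgs1, Itm2b, Btg1, Pnrc1 and Gm156, all lower in cycling members.

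**Figure D5:**
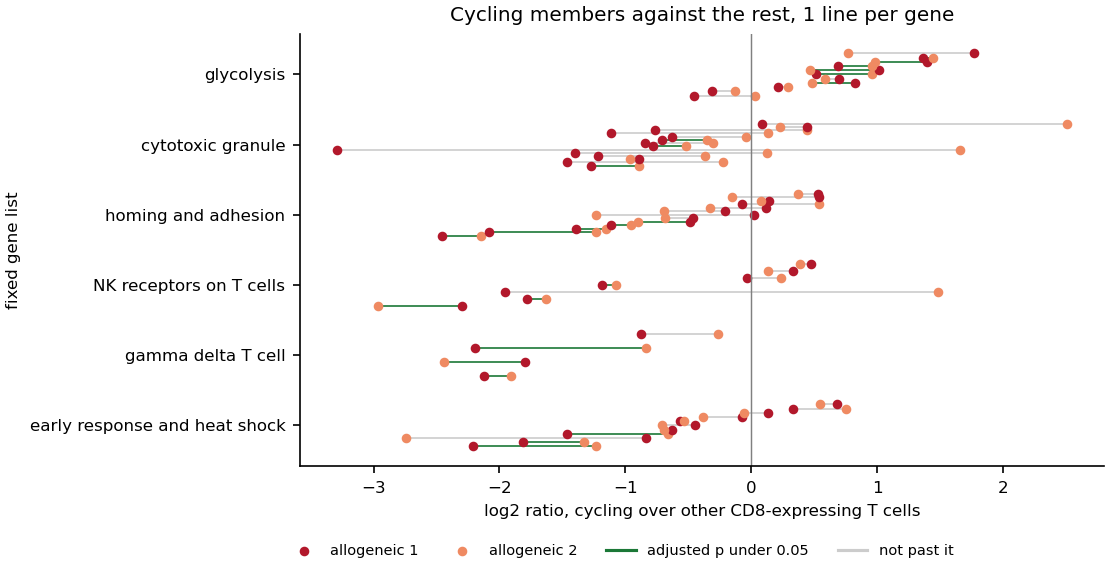
Log2 ratio of cycling over other CD8-expressing T cells for each gene tested of 6 lists, with 1 point for each allogeneic library joined by a line, green where edgeR's adjusted p was under 0.05. The 6 glycolysis genes with green lines lie right of 0 in both libraries, and the green lines of the granule, homing, NK receptor, γδ and early response lists lie left of 0.

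The count of called genes in the cycling comparison was 50 by DESeq2, 19 without the library block and 611 with a lower filter of 20 counts.

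CD8-expressing T cells were last set against the CD8-negative T cells of the same allogeneic libraries (280 and 246 against 143 and 118 cells), which passed the same rule with 0 CD8 UMIs. With the library as a block, edgeR called 68 of 3446 genes (1.97%), 23 higher (0.667%) and 45 lower (1.31%) in CD8-expressing cells. CD8-expressing cells had medians of 1080.5 and 1002.5 UMIs and CD8-negative cells of 798 and 850.5 UMIs, and some CD8-negative cells may hold unsampled CD8 RNA.

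Granule genes were higher in CD8-expressing cells, 4 of 13 tested with 0 lower. Prf1 stood at 109 and 303 CPM in CD8-expressing cells, against 26.3 and 113 CPM in CD8-negative cells (log2 fold change 1.59, SE 0.35, edgeR adjusted p = 0.000778). Gzma rose by 0.72 and Gzmb by 0.59 (SE 0.11 each). Gzmf stood at 69.3 and 110 CPM in CD8-expressing cells, against 0 and 24.2 CPM in CD8-negative cells, the last on 3 UMIs, with a pooled ratio of 7.92 and a 95% counting interval of 2.59 to 39.4; reads of near-identical granzymes of its cluster may be split with it. At 1000 UMIs, Gzmb was detected in 73.5% and 83.9% of CD8-expressing cells and in 34.7% and 40.9% of CD8-negative cells. Klrc1 and Klrc2 rose by 1.72 and 1.87 (2 of 7 NK receptors).

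Of the cytokine list, Csf2, Ifng and Areg were lower in CD8-expressing cells (3 of 8 tested), and 0 were higher. Csf2, which encodes GM-CSF, stood at 13.9 and 0 CPM in CD8-expressing cells, against 164 and 291 CPM in CD8-negative cells (log2 fold change −4.67, SE 0.48, edgeR adjusted p = 7.77e-19). Tnfrsf4, the costimulatory receptor OX40, Il7r and Cd69, an early activation marker, fell by 2.24, 1.38 and 0.8. Areg fell by 1.54, the early response factor Nr4a1 by 1.02 and Junb by 0.62, and Ifi27l2a, an interferon-induced gene, by 1.52. The per-library log2 ratios of Areg were −0.38 in allogeneic 1 and −2.72 in allogeneic 2. In allogeneic 2, Areg stood at 29 CPM in CD8-expressing, 234 CPM in CD8-negative and 86.8 CPM in epithelial comparison cells. Cd4 itself stood at 2.31 and 3.22 CPM in CD8-expressing cells, against 59.2 and 129 CPM in CD8-negative cells. Ifng passed with a log2 fold change of −0.93 (SE 0.2, edgeR adjusted p = 0.000523), but its per-library ratios were 0.18 in allogeneic 1 and −1.49 in allogeneic 2. Of 13 homing genes tested, 0 passed.

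Outside the lists, Lgals7, Ccl1, Tnfsf11, which encodes RANKL, Nrgn, Penk, Nfkbia, Ier5, Tbc1d4 and Emb were lower in CD8-expressing cells. S100a6, Ifitm1, Ran, Nme1, Tubb5, Cbx3, Tmem248, Abcb9, Rfc2 and Pclaf were higher. S100a6 and Ifitm1 had per-library log2 ratios of 1.11 and 1.08 in allogeneic 1 and 0.25 and 0.3 in allogeneic 2. By the cycling call above, 26.1% and 55.7% of CD8-expressing cells were cycling, against 14.7% and 41.5% of CD8-negative cells. That call depends on depth. Ran, Tubb5 and Pclaf also rose in cycling members. Lgals7, galectin-7, stood at 11.6 and 29 CPM in CD8-expressing cells, against 322 and 743 CPM in CD8-negative cells. Without cycling cells Ran and Tubb5 had log2 fold changes of −0.02 and −0.16. The epithelial genes Lgals4, Fabp2, Apoa1 and Rbp2 were also lower in CD8-expressing cells, in which the summed epithelial list stood at 113 and 145 CPM, against 197 and 606 CPM in CD8-negative cells; its part in the other differences was not tested. Without cycling cells the test called 23 genes, 18 of them shared with the 68. It called 0 genes without the library block (61 at an unadjusted p under 0.05) and 3 by DESeq2.

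Lists of other cell types were at different levels in the members. The erythroid list had 0 UMIs in all members, the myeloid list summed to at most 56.1 CPM and the B and plasma cell list to 42.1 to 157 CPM. In the NK cell list 3 of 6 genes had 0 UMIs, and the list summed to 397 and 454 CPM in the allogeneic and 722 and 674 CPM in the syngeneic libraries, most of it from Xcl1, a chemokine that CD8 T cells also make, at 388 and 438 CPM in the allogeneic and 722 and 660 CPM in the syngeneic libraries. The CD4 and regulatory T cell list summed to 823 and 529 CPM in the allogeneic and 1036 and 702 CPM in the syngeneic libraries, most of it from Ikzf2 and Ctla4, whose levels are given above. The stromal and endothelial list summed to 1250 and 1031 CPM in the allogeneic and 565 and 730 CPM in the syngeneic libraries, with 4 of its 6 genes at 0 UMIs and nearly all of it from Vim, which leukocytes also express, at 1243 and 1012 CPM in the allogeneic and 565 and 730 CPM in the syngeneic libraries. The Paneth list summed to 220 and 297 CPM in the allogeneic and 1507 and 772 CPM in the syngeneic libraries, against 34827 to 95348 CPM in epithelial comparison cells. The goblet list summed to 78.6 and 161 CPM in the allogeneic and 188 and 197 CPM in the syngeneic libraries, and the enterocyte list to 189 and 390 CPM against 314 and 604 CPM. These epithelial lists were thus higher in syngeneic than in allogeneic members for the Paneth and goblet genes, and their part in the differences between the groups was not tested.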

How the data were processed

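UMI counts per gene and barcode, deposited by the authors as 10x matrices for 4 libraries (2 allogeneic, 2 syngeneic), were used as raw counts. Cell Ranger 2.1.1 and mm10 are named in the submitters' processing notes, while the file headers name software version 3.1.0; which made the files is not given in the sources used here. The members and gene lists were chosen with earlier results of these data known. UMIs of each class were summed per library and tested with edgeR 4.0.16 (filterByExpr, TMM, robust quasi-likelihood fit, library as a block within the allogeneic libraries, Benjamini-Hochberg over all genes tested), with the 9 genes of the rule left out of the test. DESeq2 1.42.0 was an alternative. The code was tested on simulated data. Named genes were list members with an adjusted p under 0.05 and, per direction, the 10 others of lowest p that moved the same way in both libraries and were lower in epithelial cells; between the allogeneic libraries, list members past 2-fold; for levels, the population's markers and effector, homing and receptor genes with at least 50 UMIs in allogeneic members, or genes near 0. Between transplant types, groups that did not overlap took the place of moving the same way in both libraries. CPM are the summed UMIs of a gene per 1000000 UMIs of the class. Libraries are pools that the labels call independent, so p-values between transplant types measure the spread between pools. With the library as a block, p-values instead measure how far a class difference varied between the same 2 libraries, with spread shared over genes. The comparisons of transplant types and of CD8 chains, and fits without cycling cells, were added after the data were seen. Barcodes marked by Scrublet were kept in the main results. Doses of marrow, T cell numbers and single animals were not analysed here.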

Additional observations from a re-analysis of the deposited data

How the results depend on the processing

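Counts of called genes depended on the processing more than directions did. Between allogeneic and syngeneic members, 11 genes became 49 with no filter on low counts, 58 with at least 20 counts and 0 without cycling cells (77 at an unadjusted edgeR p under 0.05), and leaving out 1 library gave 12 to 173. Between Cd8b1-positive and Cd8a-only members, 93 genes became 11 by DESeq2, 0 by edgeR without the library block (172 at an unadjusted p under 0.05), 2 with at least 1000 UMIs and 500 genes, 57 at a mitochondrial limit of 10% and 51 with a CD8 minimum of 2. Between CD8-expressing and CD8-negative cells, 68 became 3, 0 (61 unadjusted) and 29 under the first 3 of these settings, and 23 without cycling cells. Between cycling and other members, 327 became 50 by DESeq2, 611 with at least 20 counts, 19 without the block, 208 with at least 1000 UMIs, 215 at the 10% limit, and 604 and 94 at cycling thresholds of 0.15% and 0.6%. Between the allogeneic libraries 828 genes past 2-fold became 223 with at least 50 UMIs. Of the list genes, 90 were detected in at least 10% of members of both allogeneic libraries at 1000 UMIs and 52 at 500.

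Against CD8-negative cells, reversed log2 values were those of Ifng without allogeneic 2 (0.18, against −1.49 without allogeneic 1), and of Ran (−0.0226) and Tubb5 (−0.16) without cycling cells. Among the genes named in the cycling comparison, the reversed value was that of Ccl3 at the 0.6% threshold (−0.43). Of all its called genes, 283 of the 285 tested at that threshold kept their direction. Leaving out 1 library gave log2 ratios of 1.03 to 2.41 for the member share and of 0.00478 to 0.0747 for the CD8 share of T cells. Without TMM the median log2 fold change over all genes was −0.06 between groups (0.08 with it) and 0.08 for cycling (−0.06 with it), and all called genes kept their direction. The cause of the changed counts was not tested. Leaving out 1 library of a blocked fit leaves no test, so such settings give per-library ratios and no counts. The comparison between groups with at least 1000 UMIs was not run, since syngeneic 1 held 3 such members. No paired analysis was possible because the labels give the libraries no replicate numbers that allogeneic and syngeneic pools share.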
